A study of Lytechinus variegatus with 23 samples.

Results

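The transcriptome of untreated embryos of the sea urchin Lytechinus variegatus was compared between 30 and 24 hours post fertilization (hpf), using bulk mRNA sequencing of whole embryos. The comparison rests on the control libraries of these times, 3 at 30 hpf (A, B and C) and 3 at 24 hpf (A, B and C), which were chosen by their labels and make up 6 of the 23 libraries of the series. The rest of the series holds embryos exposed to alizarin red, a mineral stain with affinity for calcium, and earlier controls, at 12, 18, 24 and 30 hpf. The alizarin groups at 30 hpf (3 libraries) and 24 hpf (3 libraries) are used below as points of comparison. So are the controls at 18 hpf (3 libraries) and 12 hpf (3 libraries). No strain, allele, dose or time of exposure is given in the sources used here, nor whether replicates came from separate cultures or crosses, so the p-values reflect no more than library-to-library spread, part of which may be technical.

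At these ages an embryo of this species passes from the end of gastrulation towards the pluteus larva. The gut divides into foregut, midgut and hindgut and its cells take on digestive functions, the skeletogenic primary mesenchyme cells (PMCs) lengthen the spicules, and neurons differentiate in the ciliary band and the apical organ. Regulatory genes that set up territories in the blastula and gastrula are often silenced or restricted by this time, while genes of differentiated cell functions come on. In RNA from whole embryos, fewer cells of a type and less RNA per cell cannot be told apart.

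The 6 libraries held between 10312291 and 11730004 counts each, with 20295 to 21260 genes detected by 1 count or more. Levels are given as CPM, the counts of a gene scaled by the TMM-adjusted library total, and differences as log2 fold changes (30 hpf over 24 hpf) with their standard error (SE), from edgeR's quasi-likelihood test fitted to all 23 libraries. A gene was called when its Benjamini-Hochberg adjusted p over the 18419 genes tested was under 0.05. Across genes, log2 CPM correlated at 0.9512 to 0.9702 between 30 hpf libraries and at 0.9352 to 0.9457 between 24 hpf libraries. Markers of the main lineages were present in all 6 libraries, among them Sm50 of the PMCs, Pks1 of pigment cells, Endo16 of the midgut, ElavL of neurons and FoxJ1 of ciliated cells. Gene names are those of the matched genes of the purple sea urchin Strongylocentrotus purpuratus. Of the genes called, 65 carry a name that another gene ID also carries, and how the counting divided reads between such copies is not given.

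Between 24 and 30 hpf, 132 genes rose (0.717% of those tested) and 39 fell (0.212%). The median of all genes was -0.01 on the log2 scale. The rises had a median log2 fold change of 2.72, and 131 of them were at least 2-fold and 55 at least 8-fold. The falls had a median of -1.61, and 38 were at least 2-fold and 6 at least 8-fold. None of the called genes had overlapping groups, whereas over all genes tested the groups did not overlap in 25.5%. Without adjustment, 1247 genes were higher and 1345 lower at a p under 0.05. The number called depended on single libraries: it was 84 without control 24 hpf library B, 45 without control 24 hpf library C, and 77, 106 and 71 without control 30 hpf libraries A, B and C. In the fit without control 24 hpf library A, 156 genes were called, 88 higher and 68 lower. Of the 171 called genes, 41 kept their call under all 14 alternatives tried, 31 of them higher and 10 lower.

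**Figure D1:**
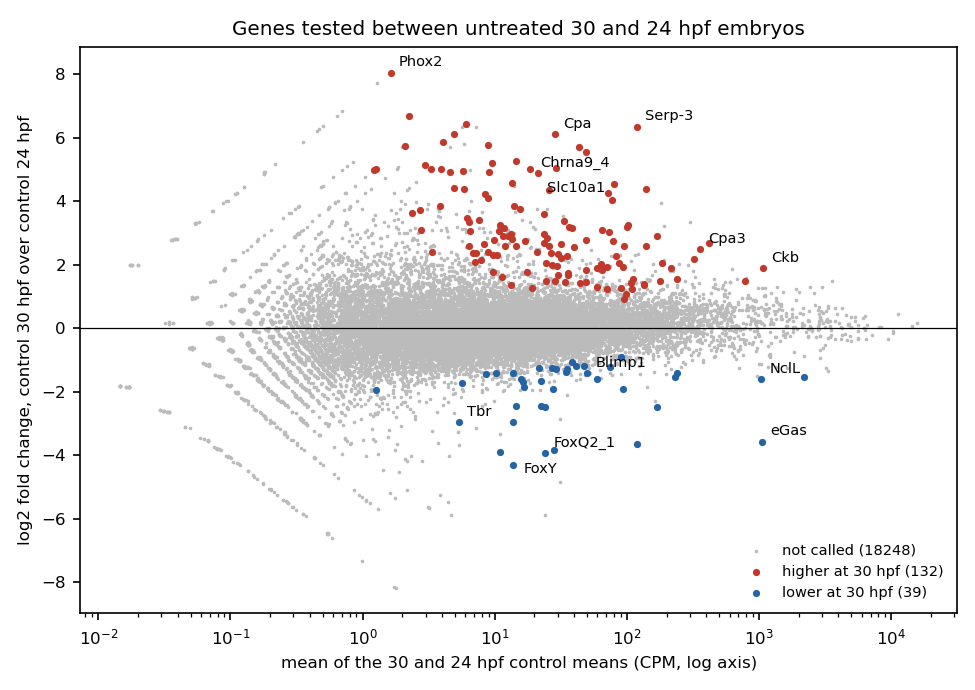
Each point is a gene tested between untreated 30 and 24 hpf embryos, with the mean of the group means in CPM on a log axis and the log2 fold change (30 hpf over 24 hpf) on the vertical axis. The 132 genes higher at 30 hpf (red) reach further from 0 than the 39 lower genes (blue).

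The called genes were uneven between libraries of 1 group. Beside these counts, library C was the highest of the 24 hpf libraries for 30 of the 39 falling genes, and library A the lowest for 29 of them. Among the 132 rising genes, library B was the lowest of the 30 hpf libraries for 87. Such counts over all genes tested are not given here, so whether this is particular to the called genes cannot be told. The counts of calls without each of them are those given above, and no batch is named in the sources used here.

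Genes of digestion took many of the largest rises. Of 89 digestive enzyme genes in the table, 66 had enough counts to be tested; of these 9 rose, none fell and 57 were not called, and 50 had a positive fold change, a share of 75.8% against 49.4% of all genes. The genes that rose were 13.6% of those tested in the list, against 0.717% of all genes tested. The median of the list was 0.56 against -0.01 for all genes. The 9 were 5 named after pancreatic carboxypeptidases, which trim amino acids from the ends of peptides, 3 named after alpha-amylase, which cuts starch, and Si2, named after sucrase-isomaltase, a disaccharidase of the vertebrate gut lining. The number called was 3 without control 24 hpf library C, 7 without control 30 hpf library B and 5 without any other 1 of the 6 libraries.

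The carboxypeptidase gene Cpa (L_var_04535) had 49.97, 46.8 and 72.0 CPM at 30 hpf, against 0.784, 0.529 and 1.12 CPM at 24 hpf. All 30 hpf libraries were high and all 24 hpf libraries close to 0, a log2 fold change of 6.10 (SE 0.71, edgeR adjusted p = 0.000129). A second copy under the same name, Cpa (L_var_04615), had 73.8, 42.0 and 52.5 CPM at 30 hpf and 1.47, 2.64 and 0.919 CPM at 24 hpf (log2 fold change 5.04, SE 0.83, adjusted p = 0.00319). Both calls held under every alternative tried. Cpa3 (L_var_05503) had 621, 371 and 841 CPM at 30 hpf, against 89.8, 142 and 92.0 CPM at 24 hpf. It was already present at 24 hpf, with a mean of 108 CPM, whereas its mean was 0.74 CPM at 18 hpf. The change of Cpa3 after 24 hpf was 2.50 (SE 0.60), and its adjusted p of 0.0496 turned into a miss when any 1 of the 6 libraries was left out, and, among other alternatives, with upper quartile scaling or no filter.

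The amylase genes had been at low levels at 24 hpf. Amy (L_var_20815) had 73.7, 39.7 and 69.1 CPM at 30 hpf, against 4.02, 5.82 and 7.65 CPM at 24 hpf, and the groups lay far apart. Its log2 fold change was 3.38 (SE 0.47, edgeR adjusted p = 0.000748), kept under every alternative. Amy_2 (L_var_06352) had 11.5, 2.40 and 15.005 CPM at 30 hpf and at most 0.196 CPM in any 24 hpf library (6.10, SE 1.06, adjusted p = 0.00483). Amy_8 (L_var_05406) had 120 counts over the 3 libraries of 30 hpf and 1 count over those of 24 hpf, a ratio of levels of 138.8 with a 95% counting interval of 24.44 to 5527. The calls of Amy_2 and Amy_8 were lost without control 24 hpf library C. The disaccharidase gene Si2 (L_var_23990) was present earlier and had 116, 72.7 and 116 CPM at 30 hpf and 26.2, 35.7 and 24.4 CPM at 24 hpf (1.82, SE 0.40, adjusted p = 0.0284), a call lost without any 1 library other than control 30 hpf library B.

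**Figure D2:**
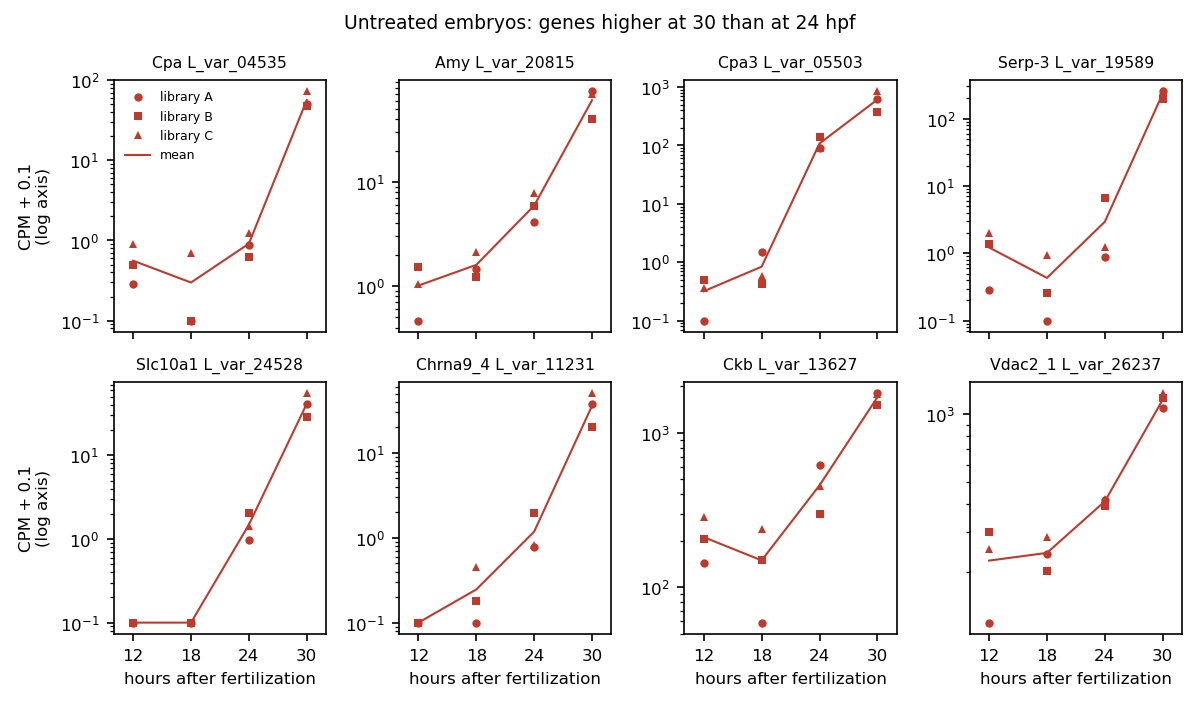
Levels in the untreated libraries A, B and C (points) and their mean (line) at 12, 18, 24 and 30 hpf, as CPM plus 0.1 on log axes, for 8 genes higher at 30 than at 24 hpf. Cpa (L_var_04535), Slc10a1 and Chrna9_4 (L_var_11231) lie low up to 24 hpf, whereas Cpa3 already had 108 CPM at 24 hpf.

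Further hydrolases, listed after their values were seen, rose with the digestive enzymes. Of 68 genes of secreted, brush border or lysosomal hydrolases, 13 rose and none fell (median log2 fold change 0.77). That is 19.1% against 0.717% of all genes tested, in a list drawn up with these values known. The number called was 6 without control 24 hpf library C and 8 without control 30 hpf library C. Among them were 7 of 11 genes named Serp or Asp, whose matches in the deposited table are bacterial serine proteases of the subtilisin type. Serp-3 (L_var_19589) had 252, 198 and 252 CPM at 30 hpf, against 0.784, 6.61 and 1.12 CPM at 24 hpf. The 24 hpf libraries differed among themselves widely, yet all lay far under the 30 hpf libraries (log2 fold change 6.34, SE 0.95, edgeR adjusted p = 0.00176). Asp_9 (L_var_19697) had 581, 425 and 564 CPM at 30 hpf and 132, 137 and 80.8 CPM at 24 hpf (2.16, SE 0.35, adjusted p = 0.00274).

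GramarL2 (L_var_26850), whose matches in the table include trypsin-type proteases, belonged to no list and had 312, 221 and 273 CPM at 30 hpf against 5.98, 11.1 and 21.8 CPM at 24 hpf. Its log2 fold change was 4.37 (SE 0.64, adjusted p = 0.00123). Dnase1_1 (L_var_06423), named after a secreted nuclease that degrades DNA, had 15.7, 5.33 and 14.9 CPM at 30 hpf and 0.196, 0.0881 and 0.102 CPM at 24 hpf (6.42, SE 1.08, adjusted p = 0.00498). Ggt1_4 (L_var_04846), named after a membrane enzyme that breaks down glutathione, had 120.4, 90.4 and 138 CPM at 30 hpf and 13.9, 15.2 and 11.7 CPM at 24 hpf (3.09, SE 0.46, adjusted p = 0.00123). Acel_6 (L_var_20859), matched to angiotensin-converting enzymes, which are peptidases of the cell surface in vertebrates, had 49.3, 18.1 and 64.1 CPM at 30 hpf and 4.21, 1.85 and 4.69 CPM at 24 hpf (3.61, SE 0.64, adjusted p = 0.00567). Of 13 genes named like it, 2 rose and 6 had a positive fold change, with a median of -0.03. The calls of Serp-3, Asp_9, GramarL2, Ggt1_4 and Acel_6 held under every alternative, and that of Dnase1_1 was lost without control 24 hpf library C. Asah2L_1, named after a ceramidase, is among the 13 without being a digestive enzyme.

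Transporters of nutrients and metabolites moved less as a group. Of 502 solute carrier genes, 9 rose, 2 fell and 491 were not called (median log2 fold change 0.23, 63.5% positive). The rises were 1.79% of the list against 0.717% of all genes tested, and the falls 0.398% against 0.212%. The number called higher was 1 without control 24 hpf library C, 2 without control 24 hpf library B or control 30 hpf library B, and between 3 and 5 without any other 1 of the 6 libraries. Slc10a1 (L_var_24528), named after the sodium-dependent bile acid transporter of the vertebrate liver, was at 0 in all control libraries of 12 and 18 hpf. It had 40.7, 28.3 and 55.02 CPM at 30 hpf against 0.882, 1.94 and 1.33 CPM at 24 hpf, a log2 fold change of 4.88 (SE 0.53, edgeR adjusted p = 0.000252) kept under every alternative. Slc13a2 (L_var_05523), of a family that takes up dicarboxylates, had 48.8, 61.8 and 27.5 CPM at 30 hpf and 17.5, 10.6 and 14.7 CPM at 24 hpf (1.69, SE 0.32, adjusted p = 0.00887). Slc5 (L_var_26816), of the sodium-coupled sugar transporter family, had 64.6, 66.1 and 68.5 CPM at 30 hpf and 7.84, 10.2 and 3.57 CPM at 24 hpf (3.20, SE 0.72, adjusted p = 0.0327). The Slc5 call was lost without any 1 of the 6 libraries, and that of Slc13a2 without control 24 hpf library B or C or control 30 hpf library B. Slc4a10 (L_var_01691), of the bicarbonate transporter family, fell, with 128, 166 and 103 CPM at 30 hpf against 336, 434 and 276 CPM at 24 hpf (-1.40, SE 0.32, adjusted p = 0.0327). That call too was lost without any 1 of the 6 libraries.

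Among the rises with the largest differences in CPM were 2 genes of energy metabolism. Ckb (L_var_13627), a creatine kinase, which shuttles high-energy phosphate, had 1801, 1516 and 1782 CPM at 30 hpf against 620, 300 and 450 CPM at 24 hpf. All 30 hpf libraries lay well above the highest 24 hpf library (log2 fold change 1.90, SE 0.43, edgeR adjusted p = 0.0342). Vdac2_1 (L_var_26237), a channel of the mitochondrial outer membrane, had 1065, 1179 and 1239 CPM at 30 hpf and 418, 395 and 423 CPM at 24 hpf (1.49, SE 0.30, adjusted p = 0.0151). Of 68 respiratory chain genes only Sdhc rose (L_var_15019, of succinate dehydrogenase; 1.23, SE 0.27, adjusted p = 0.0275) and none fell. The called share was 1.47% against 0.717% of all genes tested that rose. The list median was 0.56, and 62 of 68 members had a positive fold change, 91.2% against 49.4% of all genes. The calls of Ckb, Vdac2_1 and Sdhc were lost in the fit of only the 12 control libraries, and each held in 1 of the 6 fits that left out 1 library, without control 30 hpf library A for Vdac2_1 and without control 24 hpf library A for Ckb and Sdhc.

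Genes named after neurotransmitter receptors also held several large rises. Of 269 synaptic and neurosecretory genes 158 were tested, of which 8 rose, 1 fell and 149 were not called (median 0.27, 60.1% positive). The rises were 5.06% of those tested against 0.717% of all genes, and the fall 0.633% against 0.212%. The number called higher was 3 without control 24 hpf library C, 4 without control 30 hpf library C and 5 without control 30 hpf library A. Of the 8, 6 carried the names Chrna9_4, Chrna9_5 and Nacha6, after alpha subunits of nicotinic acetylcholine receptors, the ion channels that respond to acetylcholine. Their IDs lie in 2 runs, L_var_11094, L_var_11096 and L_var_11097, and L_var_11231, L_var_11232 and L_var_11233, each with 1 gene of each name, so reads may be shared between near copies. Over all 37 nicotinic receptor subunit genes tested, 6 rose, none fell and the median was 0.71.

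Chrna9_4 (L_var_11231) had 37.8, 19.9 and 50.3 CPM at 30 hpf, against 0.686, 1.85 and 0.714 CPM at 24 hpf (log2 fold change 5.02, SE 0.62, edgeR adjusted p = 0.000579). Its counterpart in the other run, Chrna9_4 (L_var_11094), had 16.7, 13.1 and 26.6 CPM at 30 hpf and 0.490, 0.969 and 0 CPM at 24 hpf (5.21, SE 0.97, adjusted p = 0.0102). In both, library B was the lowest at 30 hpf and the highest at 24 hpf, and the groups stayed apart. The calls of Chrna9_4 (L_var_11231) and Chrna9_5 (L_var_11233) held under every alternative, while each of the other 4 was lost both without control 24 hpf library C and without control 30 hpf library C.

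GabrA (L_var_01288), a subunit of the chloride channels opened by GABA, had 42.6, 36.4 and 51.6 CPM at 30 hpf and 6.96, 3.88 and 7.45 CPM at 24 hpf. Its log2 fold change was 2.84 (SE 0.35, edgeR adjusted p = 0.000233), kept under every alternative. Grm6L (L_var_04662), named after a metabotropic glutamate receptor, had 43.4, 45.2 and 37.5 CPM at 30 hpf and 3.72, 7.49 and 4.90 CPM at 24 hpf (2.96, SE 0.54, adjusted p = 0.00749, lost without control 24 hpf library C). Grm6L was the 1 gene called of 11 metabotropic glutamate receptors, whose median was -0.22, and GabrA the 1 called of 4 GABA receptor subunits, whose median was 0.22. In the opposite direction, Glur2_2 (L_var_10546), named after an ionotropic glutamate receptor, fell to 1046, 1284 and 1044 CPM at 30 hpf, against 2650, 2888 and 4192 CPM at 24 hpf (-1.53, SE 0.28, adjusted p = 0.00784). Its call was lost without control 24 hpf library C or control 30 hpf library A or C. Rdh10_1 (L_var_01801), of a retinol dehydrogenase, was the only one of 38 genes of light response and retinal handling that was called (1.77, SE 0.37, adjusted p = 0.0185), and not without control 24 hpf library A or C or control 30 hpf library B or C. The median of that list was 0.60, and 29 members had a positive fold change, 76.3% against 49.4% of all genes.

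Phox2 (L_var_00486), a homeobox regulator of autonomic neurons in vertebrates, was undetected at 24 hpf and at a low level at 30 hpf. It had 2.83, 3.38 and 3.57 CPM at 30 hpf, 88 counts in all, and no count in the 3 libraries of 24 hpf or in the controls of 12 and 18 hpf. With a floor of 3 counts over the 24 hpf libraries it was at least 33.92-fold higher at 30 hpf (edgeR adjusted p = 0.023). The call was lost without any 1 of the 6 libraries.

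A switch was defined as a called gene under 1 CPM in every library of one time and at least 3 CPM in every library of the other. By this definition 13 genes switched on and 0 switched off. Among the 13 were Cpa2L_2, Cpa3L_2, Dnase1_1, Phlpb_2, Serp-3 (L_var_19590), Chrna9_4 (L_var_11094), Chrna9_5 (L_var_11097 and L_var_11233), Sec14L2_5 and 3 genes without a name (L_var_14069, L_var_23991 and L_var_24090). Phlpb_2 is named after a phospholipase B of the gut lining and Sec14L2_5 after a lipid transfer protein. At bounds of 0.5 and 5 CPM 1 gene, Dnase1_1, switched on and 0 switched off. Among the fallers, 4 had a mean under 2 CPM at 30 hpf, and their means at 24 hpf were between 2.02 and 26.2 CPM.

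Several regulators of early territories were among the genes that fell. FoxY (L_var_09987), a forkhead factor of the small micromere descendants and coelomic pouches in S. purpuratus, had 0.945, 1.96 and 1.07 CPM at 30 hpf, against 15.5, 17.7 and 45.4 CPM at 24 hpf. All 30 hpf libraries were low, and library C lay far above the other 24 hpf libraries (log2 fold change -4.29, SE 0.61, edgeR adjusted p = 0.000836).

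FoxQ2_1, a forkhead factor of the animal pole that gives rise to the apical organ, was counted under 2 IDs. FoxQ2_1 (L_var_17031) had 2.52, 2.72 and 3.57 CPM at 30 hpf against 23.9, 23.2 and 88.0 CPM at 24 hpf (-3.93, SE 0.62, edgeR adjusted p = 0.0025). FoxQ2_1 (L_var_17029) had 4.51, 2.50 and 4.17 CPM at 30 hpf and 35.2, 18.2 and 105 CPM at 24 hpf (-3.82, SE 0.62, adjusted p = 0.00302). The means of both were lower at each later time, with 297, 99.7, 45.02 and 2.94 CPM for the first and 385, 110, 52.9 and 3.73 CPM for the second at 12, 18, 24 and 30 hpf. Tbr (L_var_02106), a T-box factor of the PMC lineage, had 1.36, 1.31 and 0.953 CPM at 30 hpf and 4.02, 5.55 and 19.1 CPM at 24 hpf (-2.96, SE 0.51, adjusted p = 0.00427). Its means were 118, 35.4, 9.55 and 1.21 CPM at the 4 times. The calls of FoxY, both FoxQ2_1 copies and Tbr held under every alternative, the fit without control 24 hpf library C among them.

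**Figure D3:**
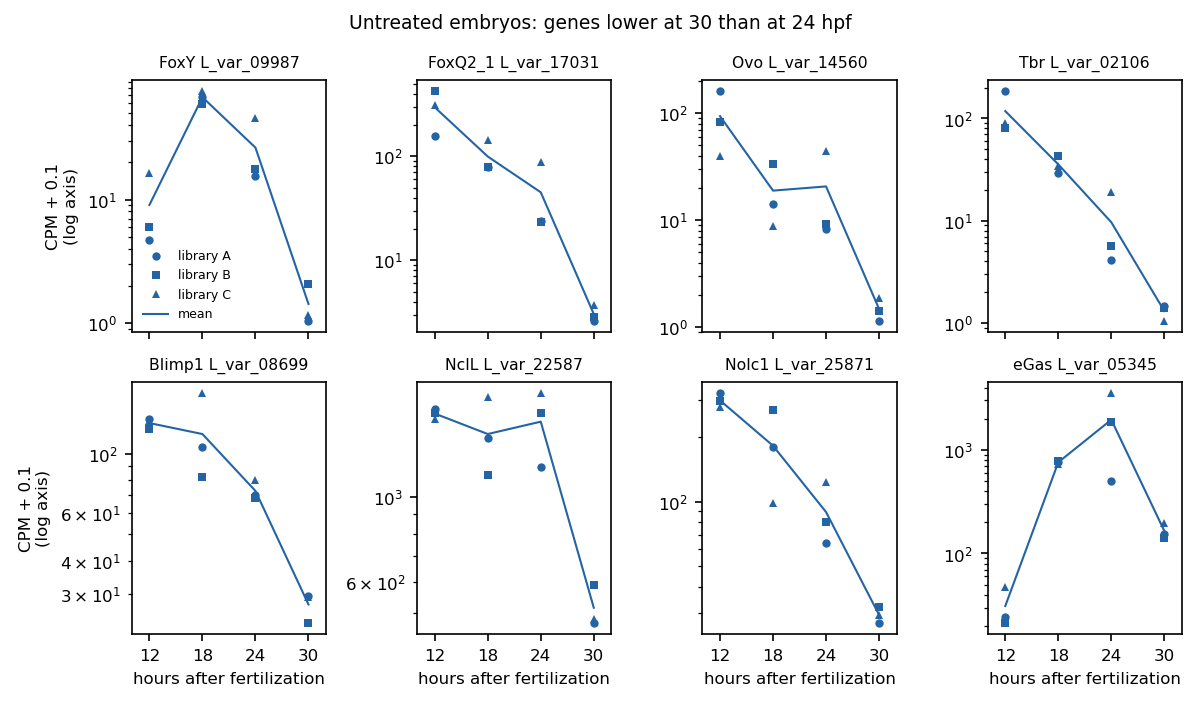
Levels in the untreated libraries A, B and C (points) and their mean (line) at 12, 18, 24 and 30 hpf, as CPM plus 0.1 on log axes, for 8 genes lower at 30 than at 24 hpf. FoxQ2_1 and Tbr decline at each time from 12 hpf, FoxY has its highest mean at 18 hpf and eGas at 24 hpf, and the 24 hpf library C (triangle) is the highest of its group in each panel.

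Ovo (L_var_14560), a zinc finger factor, had 1.05, 1.31 and 1.79 CPM at 30 hpf against 8.23, 9.16 and 44.3 CPM at 24 hpf (log2 fold change -3.89, SE 0.70, edgeR adjusted p = 0.0075). That call was lost without control 24 hpf library C or control 30 hpf library A. Ets4 (L_var_16442), of the Ets family, had 48.2, 55.1 and 50.97 CPM at 30 hpf and 59.3, 134 and 675 CPM at 24 hpf, so that 1 library set its 24 hpf mean (-2.49, SE 0.58, adjusted p = 0.0398). The Ets4 call was lost in 9 of the 14 alternatives, the fit without control 24 hpf library C among them. Blimp1 (L_var_08699), a zinc finger factor of the endoderm gene network, had 29.5, 23.4 and 29.2 CPM at 30 hpf and 70.0, 68.0 and 79.5 CPM at 24 hpf (-1.41, SE 0.30, adjusted p = 0.0253). Its libraries were even within each time, and the call was still lost without any 1 library other than control 24 hpf library A. Pax4L_1 (L_var_07423), of a paired box family, fell as well (-1.71, SE 0.33, adjusted p = 0.0102). The Pax4L_1 call was lost without control 24 hpf library C or control 30 hpf library A or C.

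The lists these regulators come from did not fall throughout. Over all genes tested, 0.212% fell. Of 13 PMC regulators 1 fell, Tbr, with a list median of -0.45 and 2 positive values. Of 25 apical and neural regulators 2 fell, both FoxQ2_1, with a median of 0.01. Of 17 endoderm regulators 1 fell, Blimp1, with a median of -0.34 and 3 positive values, and of 27 muscle and coelom genes 1 fell, FoxY, with a median of -0.40. None of 34 genes of ectoderm and axis patterning was called (median -0.14; 2 higher and 4 lower with an unadjusted p under 0.05). None of 36 Wnt pathway genes (median 0.10) and none of the 4 Hox genes tested, out of 14, was called.

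Genes of ribosome assembly formed the other falling group. This list was drawn up after values were seen: of 100 genes of nucleolar ribosome biogenesis 7 fell, none rose and 93 were not called. Members that fell were 7% of the list, against 0.212% of all genes tested. The list median was -0.59 against -0.01 for all genes, and 12 members had a positive fold change. At an unadjusted p under 0.05, 47 were lower and 1 higher. NclL (L_var_22587), named after nucleolin, which binds nascent ribosomal RNA, had 471, 591 and 483 CPM at 30 hpf against 1191, 1651 and 1853 CPM at 24 hpf (log2 fold change -1.60, SE 0.32, edgeR adjusted p = 0.0143). Nolc1 (L_var_25871), a nucleolar phosphoprotein, had 26.98, 31.8 and 29.3 CPM at 30 hpf and 63.6, 80.3 and 124 CPM at 24 hpf (-1.60, SE 0.35, adjusted p = 0.0275). Nop2 (L_var_22500), a methyltransferase of ribosomal RNA, had 28.2, 25.7 and 32.03 CPM at 30 hpf and 62.3, 62.6 and 72.1 CPM at 24 hpf (-1.20, SE 0.23, adjusted p = 0.0104). Bms1l1, Rrp1L, Cebpz and Pdcd11_1, also factors of ribosomal RNA processing, were the other 4.

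The counts of the ribosome biogenesis list took 0.413% to 0.418% of all counts at 30 hpf, against 0.649% to 0.747% at 24 hpf, 0.823% to 1.06% at 18 hpf and 0.924% to 1.08% at 12 hpf. The number of its genes called lower was 0 without control 24 hpf library C, 1 without control 30 hpf library A, 2 without control 30 hpf library C, 3 without control 30 hpf library B, 4 without control 24 hpf library B and 8 without control 24 hpf library A. The list median stayed between -0.66 and -0.52 in all alternatives. The 81 cytosolic ribosomal protein genes showed no call (median 0.16; none at an unadjusted p under 0.05).

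**Figure D4:**
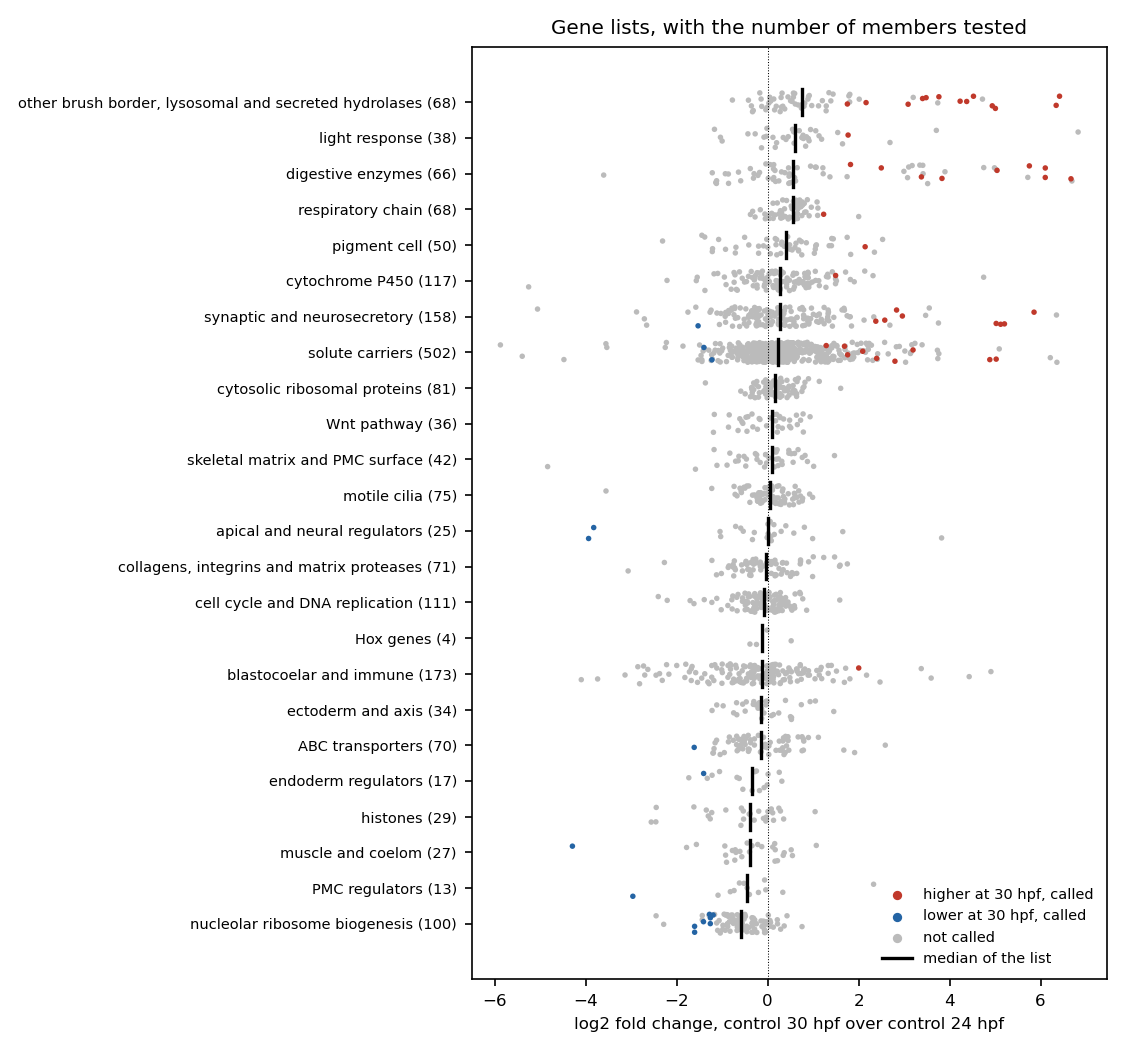
Each point is a member of a gene list placed by its log2 fold change (30 hpf over 24 hpf) in untreated embryos, with called members in red (higher) or blue (lower), the list median as a black bar and the number of members tested in parentheses. The hydrolase and digestive lists have their medians at 0.77 and 0.56 and called members to the right, and the ribosome biogenesis list has its median at -0.59 with called members to the left. The hydrolase and ribosome biogenesis lists were drawn up after values were seen, so their place beside the other lists is no finding.

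Outside the lists, eGas (L_var_05345) had 156, 142 and 197 CPM at 30 hpf, against 504, 1850 and 3509 CPM at 24 hpf. The 24 hpf libraries spread widely, and still none came near the 30 hpf libraries (log2 fold change -3.57, SE 0.58, edgeR adjusted p = 0.00274, kept under every alternative). Its mean had been 31.0 CPM at 12 hpf and 759 CPM at 18 hpf. Acly (L_var_20957), singled out after its values were seen, is ATP citrate lyase, which makes acetyl-CoA for lipid synthesis. It had 17.4, 19.4 and 20.2 CPM at 30 hpf and 50.6, 42.5 and 56.4 CPM at 24 hpf (-1.39, SE 0.25, adjusted p = 0.00606). The Acly call was lost without control 24 hpf library C.

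Genes of the differentiated mesoderm and of other lineages were mostly not called over these 6 hours. The same held for 18248 of all 18419 genes tested, so few calls are no trait of these lists. Of 42 skeletal matrix and PMC surface genes none was called (median 0.09; 4 higher and 3 lower with an unadjusted p under 0.05). Sm50 (L_var_27181), a spicule matrix gene, had 611, 697 and 661 CPM at 30 hpf and 450, 741 and 834 CPM at 24 hpf, so the groups overlapped (-0.04, SE 0.41, edgeR adjusted p = 0.978). Msp130 (L_var_22165), a PMC surface glycoprotein, had 593, 641 and 651 CPM at 30 hpf and 901, 1529 and 1646 CPM at 24 hpf, without overlap and without a call (-1.11, SE 0.36, adjusted p = 0.167).

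In the pigment cell list 1 of 50 genes rose, the flavin monooxygenase Fmo5_2 (L_var_23643; 2.14, SE 0.43, edgeR adjusted p = 0.0149), and none fell. Pks1 (L_var_23510), the polyketide synthase of pigment synthesis, had 856, 689 and 876 CPM at 30 hpf against 2188, 1734 and 1700 CPM at 24 hpf (-1.22, SE 0.41, adjusted p = 0.183), which did not pass. Of 173 blastocoelar and immune genes 1 rose, the scavenger receptor gene Srcr97 (L_var_12366; 2.003, SE 0.36, adjusted p = 0.00608). Of 117 cytochrome P450 genes 1 rose (0.855%), Cyp3L4 (L_var_14077; 1.496, SE 0.29, adjusted p = 0.0102). The P450 median was 0.27, with 16 higher and 3 lower at the unadjusted threshold. Of 70 ABC transporter genes 1 fell (1.43% against 0.212% of all genes), Abcf1 (L_var_22921; -1.61, SE 0.33, adjusted p = 0.0165), whose family acts in translation and not in transport. The ABC transporter median was -0.15, with 3 higher and 7 lower at the unadjusted threshold. Without control 24 hpf library B or C the calls of Fmo5_2, Cyp3L4 and Abcf1 were lost, while that of Srcr97 held under every alternative. Abcf1 was also lost without control 30 hpf library A, B or C, and Fmo5_2 without control 30 hpf library A or C. The Cyp3L4 call was also lost in the fit of only the 12 control libraries.

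No gene of cell cycle and DNA replication (111 tested, median -0.07; 3 higher and 13 lower with an unadjusted p under 0.05), histones (29, median -0.38; 0 higher and 2 lower) or motile cilia (75, median 0.06; 12 higher and 1 lower) was called. The same held for 71 genes of collagens, integrins and matrix proteases (median -0.03; 2 higher and 3 lower). Outside the cilia list, Dynlc1-3a (L_var_05047), a dynein light chain, rose (2.06, SE 0.30, edgeR adjusted p = 0.000923), and of 82 C-type lectin genes, counted after the values were seen, 4 rose and none fell. None of these 4 calls held without control 24 hpf library C or control 30 hpf library A or C. Over all genes tested, 0.717% rose.

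Most rising genes had their highest mean at 30 hpf. This was so for 128 of the 132, and the other 4 were highest at 12 hpf. Of the 132, 58 had means under 1 CPM at 12 and at 18 hpf, and 53 had already been called higher at 24 than at 18 hpf. Of the 39 falling genes, the highest mean was at 12 hpf for 19, at 18 hpf for 9 and at 24 hpf for 11, and 35 had their lowest mean at 30 hpf.

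Whether the change from 24 to 30 hpf differed from that of 18 to 24 hpf was tested as the later minus the earlier change, which share the 24 hpf libraries. 22 genes passed (0.119% of those tested), 1 with a positive difference and 21 with a negative one. The sign of the difference does not say which change was larger in size. The positive difference was that of GabrA, with a change of 2.84 from 24 to 30 hpf and -0.91 from 18 to 24 hpf (difference 3.74, SE 0.63, edgeR adjusted p = 0.0168). Msclact (L_var_19627), a muscle actin, had 1087, 919 and 1089 CPM at 30 hpf and 437, 2280 and 1535 CPM at 24 hpf, after a mean of 2.40 CPM at 18 hpf. Its change was -0.46 in the later interval and 9.22 in the earlier (difference -9.67, SE 0.78, adjusted p = 9.57e-07). The homeobox gene Isx (L_var_16864) had 11.2, 15.6 and 18.8 CPM at 30 hpf and 8.23, 5.99 and 10.4 CPM at 24 hpf, after no count at 18 hpf (adjusted p of the difference 0.00548). For eGas the change was -3.57 in the later interval and the difference -4.93 (SE 0.87, adjusted p = 0.019). The count of 22 was 4, 5, 5, 7 and 5 without control 24 hpf library C or B or control 30 hpf library A, B or C, 8 and 5 without control 18 hpf library A or B, and 45 without control 24 hpf library A.

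Alizarin embryos gave the same interval in libraries that share none with the controls. Among them 135 genes rose (0.733% of those tested) and 56 fell (0.304%) from 24 to 30 hpf. 45 genes rose in both treatments, 34.1% of the 132 control risers and 33.3% of the 135 alizarin risers, and 6 fell in both, 15.4% of the control fallers and 10.7% of the alizarin fallers. Of the 132 control risers, 130 had a higher fitted level at 30 than at 24 hpf in alizarin embryos, where 50.8% of all genes did. Their median change was 1.65 in alizarin embryos and 2.72 in controls, by which they had been chosen. Of the 39 control fallers, 32 had a lower level at 30 hpf in alizarin embryos, with a median change of -0.67. The alizarin counts moved with single libraries, between 21 genes called without alizarin 24 hpf library A and 1052 without alizarin 24 hpf library C.

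In alizarin embryos the digestive enzymes had a median change of 0.74 with 5 of 66 called higher, and the respiratory chain genes one of 0.77 with 1 of 68 called higher. The ribosome biogenesis genes had a median of -0.35 with 1 of 100 called lower. The cytosolic ribosomal protein genes had a median change of 1.39 in alizarin embryos and 0.16 in controls, and the histones 0.92 in alizarin embryos and -0.38 in controls, with none called in either treatment. No test of the difference between treatments was made for a list. For single genes the difference of the changes passed for 3 genes (0.0163% of those tested). Rej5 (L_var_17573), of the receptor for egg jelly family of polycystin-like membrane proteins, had 10.9, 7.52 and 9.53 CPM at 30 hpf and 13.7, 13.9 and 11.0 CPM at 24 hpf in alizarin embryos. In controls it had 52.7, 46.5 and 51.6 CPM at 30 hpf and 9.998, 8.46 and 11.5 CPM at 24 hpf (2.33, SE 0.29, edgeR adjusted p = 0.000233). The times lay far apart in controls and narrowly apart, with no call, in alizarin embryos, and the difference of the changes, alizarin minus control, was -2.80 (SE 0.40, adjusted p = 0.00434).

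**Figure D5:**
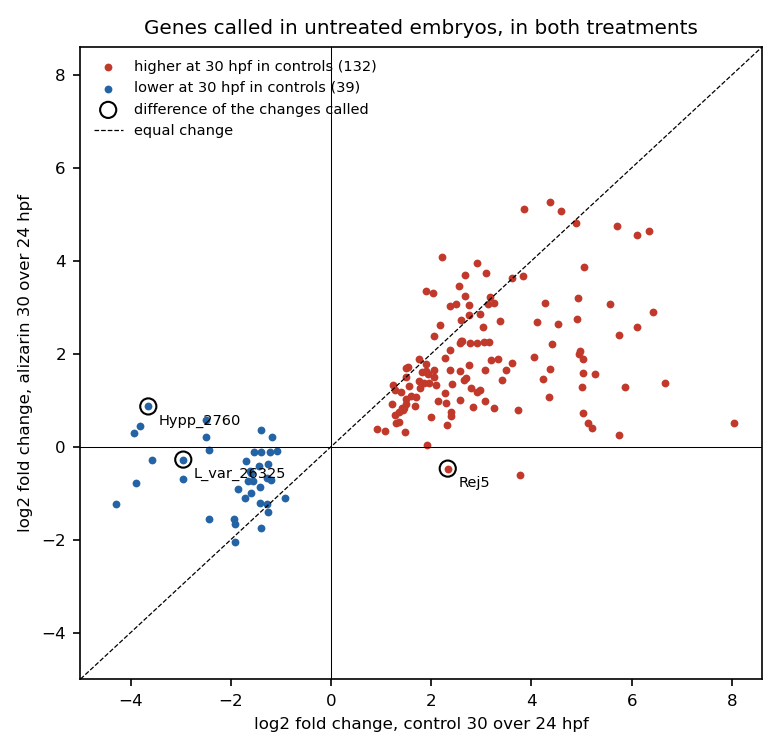
Each point is one of the 171 genes called in untreated embryos, with its log2 fold change (30 hpf over 24 hpf) in controls on the horizontal axis and in alizarin embryos on the vertical axis. The dashed line marks equal changes, and circles mark the 3 genes whose changes differed between treatments. 130 of the 132 red points lie above 0 on the vertical axis. The genes were chosen by their change in controls, so their place relative to the dashed line is no finding.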

How the data were processed

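Per the labels' protocols, RNA of whole embryos was purified with TRIzol, and the libraries were of the DNBSEQ mRNA type. Reads were aligned with STAR 2.7.1a, per the submitters' processing notes. The genome build, annotation and counting tool are not given in the sources used here, nor whether strand was used. The authors deposited whole-number counts per gene, with each gene repeated for every protein match; of 27232 IDs, 27231 could be read, each was used once and repeats did not conflict.

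Counts were tested with edgeR 4.0.16 (R 4.3.3): TMM scaling, filterByExpr with a minimum count of 10, robust quasi-likelihood fit of 8 group means over 23 libraries, and Benjamini-Hochberg adjustment at 0.05. Alternatives were RLE and upper quartile scaling, no filter, DESeq2 1.42.0, smaller fits, a replicate block and leaving out each library. The procedure was run on simulated counts with the same dispersion for all genes and no outlying library. Such a run cannot show how the calls hold in libraries as uneven as these. Bounds and intervals cover counting error only, with a floor of 3 counts over a group; depth was 10312291 counts or more.

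The comparison and the lists were chosen with earlier results of these data known, and lists match symbols. Genes were named by these rules: the 15 largest rises and 15 largest falls with at least 5 CPM and no overlap, the 6 largest rises and falls in CPM, up to 4 per list by adjusted p, and the 6 smallest p of each difference. The text gives a part of these, and other names were singled out after their values were seen. Sequences are not used here. Not every called gene is reported here by name.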

Additional observations from a re-analysis of the deposited data

Results flagged for a closer look

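The change from 24 to 30 hpf differed between alizarin and control embryos for 3 genes by the test of the difference itself (edgeR, adjusted over 18419 genes), and these results would merit a second look. Rej5 (L_var_17573) had a difference, alizarin minus control, of -2.80, with means of 9.31 CPM at 30 hpf and 12.9 CPM at 24 hpf in alizarin embryos and of 50.3 CPM at 30 hpf and 9.996 CPM at 24 hpf in controls. Hypp_2760 (L_var_17039), a gene of unknown function, had a difference of 4.51 (SE 0.35, adjusted p = 5.81e-07). In alizarin embryos it had 447, 321 and 445 CPM at 30 hpf against 217, 245 and 203 CPM at 24 hpf, and in controls 19.7, 14.6 and 18.5 CPM at 30 hpf against 237, 169.8 and 254 CPM at 24 hpf. The unnamed gene L_var_26325 had a difference of 2.67 (SE 0.35, adjusted p = 0.00174), with 34.5, 21.4 and 36.4 CPM at 30 hpf and 39.6, 39.2 and 33.0 CPM at 24 hpf in alizarin embryos. In controls it had 3.04, 2.72 and 3.69 CPM at 30 hpf and 27.9, 19.03 and 26.2 CPM at 24 hpf.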

How the results depend on the processing

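With RLE or upper quartile scaling, no filter, the 12 control libraries alone or a 2-fold minimum, the count of genes changed from 24 to 30 hpf in controls stayed between 160 and 182. The genes were not all the same. Of the 171 called genes, 131 kept their call with the 12 control libraries alone and 155 with upper quartile scaling. The latter called 116 genes higher and 48 lower. A fit of only the 6 libraries called 575 genes, and DESeq2 508. Leaving out 1 library gave 45 to 156. For alizarin embryos DESeq2 gave 995 and leaving out 1 library 21 to 1052. For the difference between treatments DESeq2 gave 18 and leaving out 1 library 3 to 6. For the difference between intervals a fit of its own groups gave 60, DESeq2 97 and leaving out 1 library 4 to 45.

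Called digestive enzymes numbered 20 in the fit of 6 libraries, 14 with DESeq2 and 3 to 7 with 1 library left out; called ribosome biogenesis genes numbered 13, 16 and 0 to 8. The stricter switch bounds left 1 gene. None of the 171 called genes changed sign in any alternative that tested it. Since no called gene had overlapping groups, a turned sign was hardly possible, so this is no measure of stability. The cause of the larger counts was not tested.

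The letters are not stated to mark a shared culture and were not taken as pairs in the main fit. Same-letter libraries of 30 and 24 hpf deviated together by correlations of 0.373 (A), 0.181 (B) and 0.0067 (C), which do not settle whether they are pairs. The replicate block with 8 group means gave 219 genes in controls, 285 in alizarin embryos, 7 for the difference between treatments and 23 for that between intervals; Cpa3 was not called in it. In a fit of only the 6 libraries, the block gave 1035 genes, 19 digestive and 19 ribosome biogenesis. The 30 hpf libraries A and B correlated best with their own letter, and C with 24 hpf library A (0.0258). With 10312291 to 11730004 counts a library, changes of genes near 1 CPM rest on few reads.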
